A study of Homo sapiens with 18 samples.

Results

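Transcripts of the protein-folding machinery were followed in HMC3 cells exposed to oxLDL: the heat shock proteins, their J-protein partners, the BAG and HSP90 co-chaperones and the cytosolic chaperonin. Members were chosen by gene symbol alone, and 76 of the 13992 listed rows matched. They comprise 69 protein-coding symbols, 3 rows written HSPA1B_1, HSPA1B_2 and HSPA1B_4, the chaperonin pseudogenes CCT6P1 and CCT6P3, and the noncoding neighbours DNAJC9-AS1 and DNAJC3-DT. HSPA1A, an unsuffixed HSPA1B, HSF1, DNAJA3 and the chaperonin subunit CCT8 were not analysed here.

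HMC3 is an immortalized human line labelled as microglial and wild type, and every library comes from this 1 line. oxLDL is a modified lipoprotein particle that cells take up through scavenger receptors. Cells were kept for 24 h with no oxLDL (0 µg/ml), with low doses of 1, 2.5 and 10 µg/ml, or with high doses of 50 and 100 µg/ml, and poly-A RNA of 3 libraries per dose was sequenced. The labels name no vehicle for the 0 µg/ml libraries, give the same batch value throughout, and do not state whether a dose's 3 libraries were grown apart. The p-values therefore measure the spread between libraries, which may be technical.

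Many chaperones bind unfolded stretches of other proteins and release them in cycles driven by ATP. J-proteins deliver clients to HSP70 and start its ATPase, nucleotide exchange factors such as the HSP110 and BAG proteins reset it, and HSP90 with its co-chaperones finishes the folding of kinases and steroid receptors. When unfolded protein builds up in the cytosol, the transcription factor HSF1 drives many of these genes through heat shock elements, while the endoplasmic reticulum (ER) and the mitochondria have chaperones and stress responses of their own.

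Values are FPKM, read numbers scaled by transcript length and library total, so levels can be compared between genes. Recovered depths were 13902719 to 37338597 reads per library over the listed genes. Of 15 markers of microglia and macrophages, 1 was analysed here, the lysosomal CD68. It had 14.3 to 15.7 FPKM at 100 µg/ml, against 11.9 to 12.4 FPKM at 0 µg/ml, and was not called. Of the pericyte and fibroblast markers, 7 of 8 were analysed, with a summed FPKM of 1222 to 1313 at 100 µg/ml, against 1410 to 1497 at 0 µg/ml, and 3 of them fell. The 3 neuronal markers analysed summed to 27.1 to 29.4 FPKM at 100 µg/ml, against 32.1 to 33.3 FPKM at 0 µg/ml, and 1 of them fell. The 2 astrocyte markers summed to 1.76 to 2.02 FPKM at 100 µg/ml, against 1.87 to 2.13 FPKM at 0 µg/ml. The 1 oligodendrocyte marker analysed, MBP, and the 1 endothelial marker analysed, VWF, stayed under 0.1 FPKM at both doses. The part of these shifts in the results below was not tested. In bulk RNA, a change in the cells that make a transcript and a change in the RNA per cell cannot be told apart.

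At the 2 highest doses more chaperone transcripts rose than fell, and the steps were small. At 100 against 0 µg/ml, 21 of the 75 tested members rose and 1 fell at an adjusted p under 0.05 in limma (29.3%), where 15.5% of all 12127 tested genes were called. Among all genes 7.94% rose and 7.51% fell. The median log2 fold change of the members was 0.06, against 0.00 over all tested genes. At 50 against 0 µg/ml, 14 members rose and 1 fell (20.0%), where 7.47% of all genes were called (3.78% rose and 3.69% fell), and the members' median log2 fold change was 0.06. The filter on low values (at least 0.5 FPKM in 3 libraries) was passed by HSPA6, and mainly so by HSPA1B_1, through the 50 and 100 µg/ml libraries where they are high. With no filter, 20 of all 76 members rose and 1 fell at 100 against 0 µg/ml, where 1875 of 13992 genes were called. Without replicate 1 at 0 µg/ml 14 members were called at 100 µg/ml, where all genes called fell from 1874 to 1272. At 50 µg/ml 7 members were called without replicate 1 or without replicate 3 at 0 µg/ml, and 8 without replicate 3 at 50 µg/ml. All genes called there fell from 906 to 458, 500 and 475, in the same order.

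Libraries of the doses were also apart for many members. All 3 libraries at 100 µg/ml lay above all 3 at 0 µg/ml for 33 members (44.0%) and below them for 7 (9.3%). Over all tested genes these shares were 16.5% and 16.9%. At 50 against 0 µg/ml the counts were 30 members above (40.0%) and 7 below (9.3%), where all genes gave 14.9% and 13.3%.

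By the place where the protein works, 13 of the 37 tested cytosolic members rose at 100 against 0 µg/ml and 1 fell. Of 12 ER members 3 rose, and of 7 mitochondrial members 2 rose. The shares called were 37.8% of cytosolic, 25% of ER and 28.6% of mitochondrial members, where 15.5% of all genes were called. None of the 3 nuclear members, the 1 endosomal member, the 7 members with no assigned place or HSF2 was called. The last 3 of the 21 rises were the suffixed HSPA1B rows. Whether the places differ from each other was not tested.

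**Figure D1:**
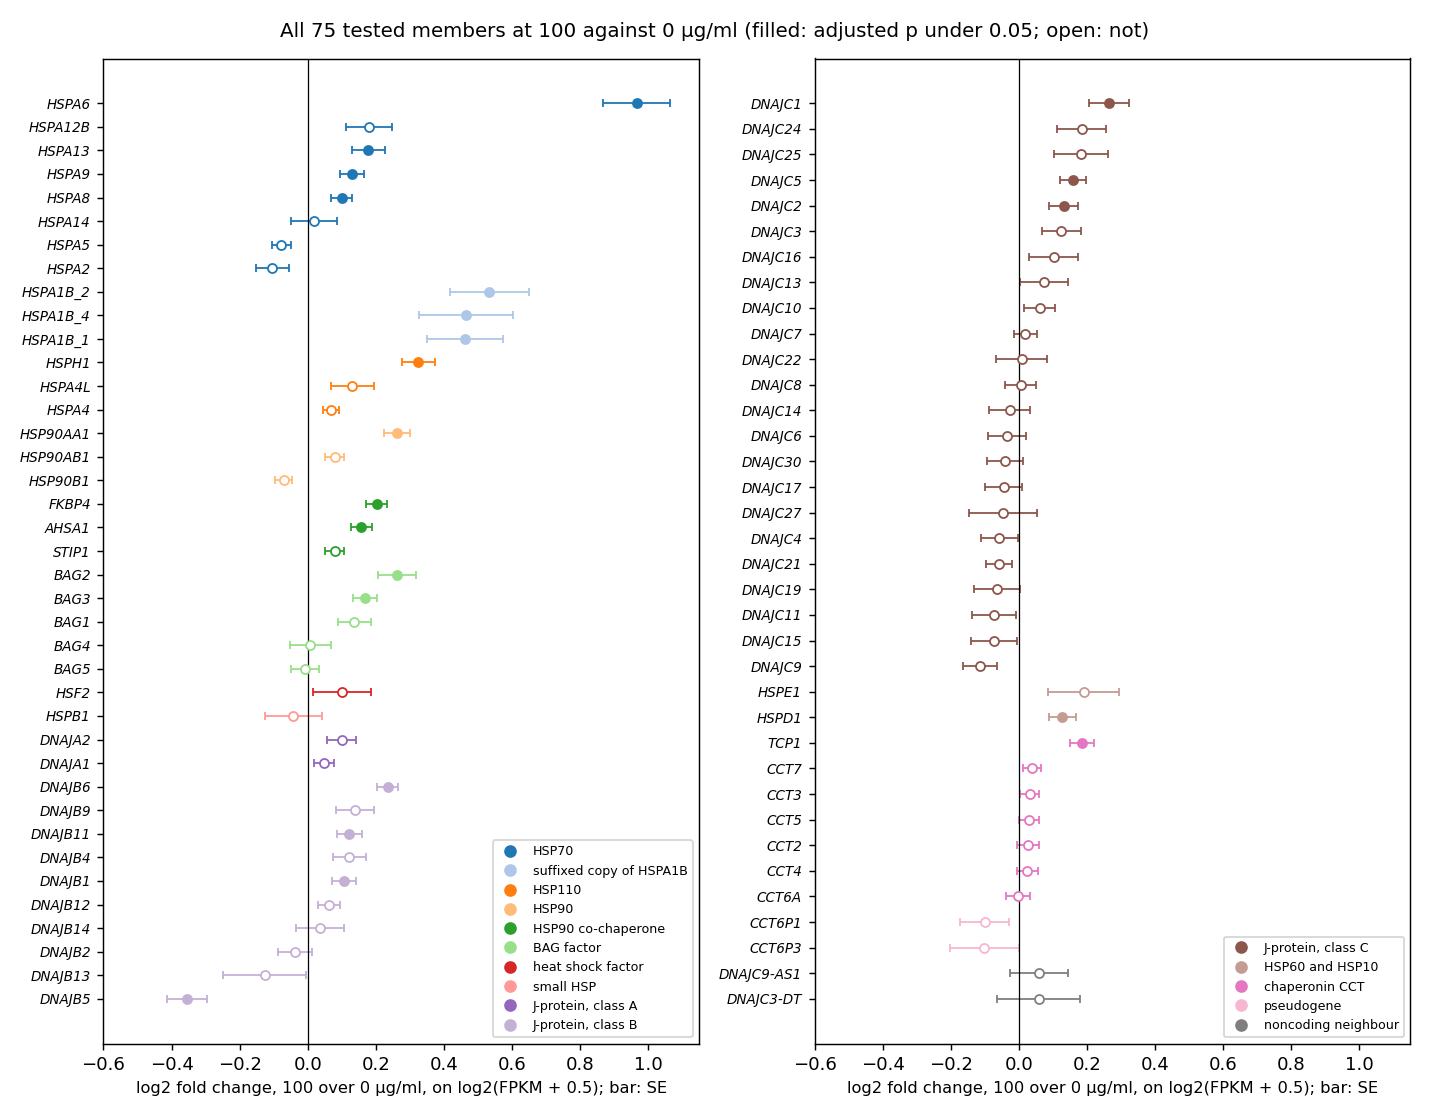
Log2 fold change at 100 over 0 µg/ml for the 75 tested members (x axis, on log2(FPKM + 0.5); bars are the limma SE), grouped and coloured by family. Filled points are the 22 members with an adjusted p under 0.05: HSPA6 stands far to the right at 0.97, DNAJB5 is the filled point left of 0 at -0.35, and the other filled points lie between 0.10 and 0.53.

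Heat shock elements were looked up in the RefSeq promoters (GRCh38.p14, 250 bases before to 50 after the start site), which exist for 63 members. The shorter element is GAANNTTC, and the 3-unit element adds 2 bases and a further GAA. Both were searched on either strand. The 3-unit element is in 0.49% of 35116 promoters and in 0.306% of the 10778 promoters of listed genes. Among the members it is in 4, HSPA6, DNAJB6, HSPA8 and DNAJA1. The first 3 of these rose at 100 µg/ml and DNAJA1 was not called. Every 3-unit element contains the shorter element. The shorter element is in 6.77% of all promoters, 4.64% of those of listed genes and 12.7% of the members' promoters. It is in 5 of the 16 risers with a promoter and in 2 of 45 members with a promoter that were not called. These counts describe the window only, and no match says nothing about HSF1. The promoters of the 3 risers are printed 5′ to 3′ along the gene's strand, with the 3-unit element in capitals.
HSPA6, chr1:161524290-161524589, plus strand: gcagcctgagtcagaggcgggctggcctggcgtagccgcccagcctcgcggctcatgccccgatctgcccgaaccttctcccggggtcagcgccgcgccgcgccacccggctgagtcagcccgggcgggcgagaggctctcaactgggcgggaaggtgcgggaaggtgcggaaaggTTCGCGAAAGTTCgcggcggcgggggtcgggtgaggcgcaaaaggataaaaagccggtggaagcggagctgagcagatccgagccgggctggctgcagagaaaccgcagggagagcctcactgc
DNAJB6, chr7:157336754-157337053, plus strand: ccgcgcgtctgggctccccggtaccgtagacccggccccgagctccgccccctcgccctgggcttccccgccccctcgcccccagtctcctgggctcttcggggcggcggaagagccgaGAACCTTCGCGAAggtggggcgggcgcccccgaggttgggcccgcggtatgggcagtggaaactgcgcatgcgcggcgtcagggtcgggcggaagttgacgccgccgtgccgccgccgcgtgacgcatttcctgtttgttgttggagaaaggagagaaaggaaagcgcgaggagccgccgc
HSPA8, chr11:123062087-123062386, minus strand: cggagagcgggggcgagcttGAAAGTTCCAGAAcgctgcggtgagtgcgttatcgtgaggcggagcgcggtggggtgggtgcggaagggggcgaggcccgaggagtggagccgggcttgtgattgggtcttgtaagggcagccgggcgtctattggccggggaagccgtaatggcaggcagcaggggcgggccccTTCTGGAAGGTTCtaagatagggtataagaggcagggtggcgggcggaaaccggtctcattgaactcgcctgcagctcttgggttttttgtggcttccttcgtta
The element starts at -74 in HSPA6 and at -131 in DNAJB6, counted from the start site, and HSPA8 holds it at -230 and at -55.

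HSP70 is the family that binds unfolded protein first. Its strictly stress-inducible human member HSPA6 (hg38 chr1:161524540-161526894) made the largest rise among all members. HSPA6 had 0.877, 0.818 and 0.671 FPKM at 100 µg/ml, against 0.124, 0.141 and 0.213 FPKM at 0 µg/ml. Every 100 µg/ml library was above every 0 µg/ml library. The log2 fold change was 0.97 (SE 0.10, limma adjusted p = 4.74e-06), and the ratio of the means was 4.95. HSPA6 was at or above 0.5 FPKM in 6 of 6 libraries at 50 and 100 µg/ml and in 0 of 12 at the lower doses, so its entry into the tests was decided by the doses where it is high. Fitted with no filter, the adjusted p was 1.78e-06 at 100 µg/ml.

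HSPA6 at 50 µg/ml had 0.620, 0.534 and 0.782 FPKM, again above every 0 µg/ml library (fold 0.79, SE 0.10, limma adjusted p = 9.21e-05). The lower doses stayed near the baseline, with means of 0.139 ± 0.062 at 1, 0.191 ± 0.024 at 2.5 and 0.191 ± 0.034 FPKM at 10 µg/ml (SD, n = 3 each). HSPA6 rests on few recovered reads: 37, 72 and 22 at 100 µg/ml, against 6, 9 and 14 at 0 µg/ml. Because the level is low, its log2 fold change depends on the pseudocount, at 1.78 with 0.1, 0.62 with 1 and 2.28 from limma-voom on the recovered reads, with the call kept each time. A near-identical copy, HSPA7, makes the origin of these reads uncertain.

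The rows HSPA1B_1, HSPA1B_2 and HSPA1B_4 carry the symbol of a major inducible HSP70 gene with a suffix that the sources used here do not explain. HSPA1B has near-identical copies, so how the reads were divided among them is uncertain. Summed over the 3 rows, the level was 4.81, 3.59 and 4.85 FPKM at 100 µg/ml, against 2.78, 2.28 and 2.93 FPKM at 0 µg/ml. The 2 sets of libraries did not overlap. HSPA1B_1 reached 0.5 FPKM in 4 of 6 libraries at 50 and 100 µg/ml and in 1 of 12 at the lower doses. It was thus tested mainly through the high doses, and with no filter its adjusted p at 100 µg/ml was 0.00702. Each row rose at 100 µg/ml, with log2 fold changes of 0.46 for HSPA1B_1 (limma adjusted p = 0.00882), 0.53 for HSPA1B_2 (adjusted p = 0.00425) and 0.46 for HSPA1B_4 (adjusted p = 0.0303). HSPA1B_4 rested on replicate 1 at 100 µg/ml, with 2.10 FPKM beside 1.32 and 1.37, and was not called without it (adjusted p = 0.149), nor when 0 µg/ml replicate 1 or 2 was left out. The summed level at 50 µg/ml was 3.39 ± 0.080 FPKM (SD, n = 3), and none of the 3 rows passed the test.

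HSPA8, the constitutive HSP70 of the cytosol and the second most abundant member after HSP90AB1, moved by less. It had 1458, 1443 and 1439 FPKM at 100 µg/ml, against 1370, 1330 and 1349 FPKM at 0 µg/ml. The libraries did not overlap, and the log2 fold change was 0.10 (SE 0.031, limma adjusted p = 0.038). At 50 µg/ml it was 0.12 (adjusted p = 0.024). Both calls were near the threshold. That at 100 µg/ml was lost when any 1 of the 6 libraries was left out, and that at 50 µg/ml on leaving out 0 µg/ml replicates 2 or 3 or 50 µg/ml replicates 1 or 2. With libraries scaled to the same median the adjusted p was 0.173 at 100 and 0.152 at 50 µg/ml, the highest of any setting.

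Transcripts of the organelle HSP70 proteins did not all lie on the same side of 0 µg/ml. HSPA9, the mitochondrial HSP70 that pulls proteins through the inner membrane, had 145, 147 and 152 FPKM at 100 µg/ml, against 136, 138 and 132 FPKM at 0 µg/ml. The groups were apart (fold 0.13, SE 0.035, limma adjusted p = 0.0178). Leaving out 0 µg/ml replicate 1 or 3, or 100 µg/ml replicate 3, ended the call (adjusted p up to 0.0898). HSPA13, a microsomal HSP70 of the ER, had 31.1, 30.9 and 32.5 FPKM at 100 µg/ml, against 26.5, 29.8 and 27.0 FPKM at 0 µg/ml. It rose by 0.18 (SE 0.049, limma adjusted p = 0.019). The same 3 omissions each ended this call (adjusted p up to 0.101).

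HSPA5, or BiP, is the main HSP70 of the ER lumen and a standard readout of ER stress. It had 217, 220 and 215 FPKM at 100 µg/ml, against 232, 227 and 229 FPKM at 0 µg/ml. All treated libraries were below all 0 µg/ml libraries, yet the log2 fold change of -0.08 (SE 0.029) did not pass (limma adjusted p = 0.0808). Of the remaining HSP70 members, HSPA12B (0.18, adjusted p = 0.0876), HSPA14 (0.02, adjusted p = 0.901) and HSPA2 (-0.10, adjusted p = 0.161) were not called.

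HSP110 proteins are relatives of HSP70 that act as its nucleotide exchange factors. HSPH1 (chr13:31134973-31162388), which is induced by heat shock, had 45.6, 46.6 and 50.5 FPKM at 100 µg/ml, against 38.1, 39.6 and 35.8 FPKM at 0 µg/ml. The lowest treated library exceeded the highest 0 µg/ml library. The log2 fold change was 0.32 (SE 0.048, limma adjusted p = 0.000201). At 50 µg/ml the libraries had 45.2, 45.5 and 45.8 FPKM, a fold of 0.26 (adjusted p = 0.00288), while the means at 1, 2.5 and 10 µg/ml were 37.9, 39.5 and 40.7 FPKM.

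HSPA4, the most abundant HSP110, had 104, 104 and 103 FPKM at 100 µg/ml, against 99.0, 99.0 and 98.2 FPKM at 0 µg/ml. The libraries were apart, but the difference of 0.07 did not pass (limma adjusted p = 0.0638). HSPA4L differed by 0.13 (adjusted p = 0.194).

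HSP90 is an abundant dimeric chaperone with a stress-inducible cytosolic form, HSP90AA1, a constitutive cytosolic form, HSP90AB1, and an ER form, HSP90B1 (GRP94). HSP90AA1 (chr14:102080742-102139749) had 1116, 1109 and 1184 FPKM at 100 µg/ml, against 938, 980 and 926 FPKM at 0 µg/ml. The groups were well apart, with a mean 19.9% higher at 100 µg/ml (fold 0.26, SE 0.039, limma adjusted p = 0.000208). The 50 µg/ml libraries had 1106, 1101 and 1095 FPKM (fold 0.22, adjusted p = 0.00249).

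HSP90AB1 had 1518, 1511 and 1500 FPKM at 100 µg/ml, against 1429, 1429 and 1431 FPKM at 0 µg/ml. The libraries did not overlap, and the fold of 0.08 missed the threshold (limma adjusted p = 0.0594). At 50 µg/ml a fold of 0.09 passed (adjusted p = 0.0477), a call lost in 11 of the 15 other settings, among them without any 1 of the 6 libraries. Summed over both cytosolic forms, the level was 2646 ± 33.2 FPKM at 100 µg/ml, against 2377 ± 27.4 FPKM at 0 µg/ml (SD, n = 3 each).

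The ER form lay the other way. HSP90B1 had 379, 390 and 383 FPKM at 100 µg/ml, against 405, 407 and 397 FPKM at 0 µg/ml. Each treated library was below each 0 µg/ml library, and the difference of -0.07 did not pass (SE 0.026, limma adjusted p = 0.074). HSPA5 and HSP90B1 together had 601 ± 7.44 FPKM at 100 µg/ml, against 633 ± 5.27 FPKM at 0 µg/ml (SD, n = 3 each).

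These ER chaperones are the 2 members, of 63 with a promoter, that hold the ER stress element, CCAAT and CCACG with 9 bases between them on either strand, which 27 of 35116 promoters carry (0.0769%). Among the promoters of listed genes the share is 0.13%. This search was added after the values were seen. Their promoters are shown with that element in capitals, for comparison with the heat shock elements above.
HSPA5, chr9:125241294-125241593, minus strand: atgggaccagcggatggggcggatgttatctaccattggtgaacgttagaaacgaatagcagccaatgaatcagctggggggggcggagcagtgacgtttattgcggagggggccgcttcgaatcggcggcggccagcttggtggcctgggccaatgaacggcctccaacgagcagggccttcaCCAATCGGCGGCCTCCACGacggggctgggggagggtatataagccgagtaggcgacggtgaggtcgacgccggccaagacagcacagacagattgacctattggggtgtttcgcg
HSP90B1, chr12:103930160-103930459, plus strand: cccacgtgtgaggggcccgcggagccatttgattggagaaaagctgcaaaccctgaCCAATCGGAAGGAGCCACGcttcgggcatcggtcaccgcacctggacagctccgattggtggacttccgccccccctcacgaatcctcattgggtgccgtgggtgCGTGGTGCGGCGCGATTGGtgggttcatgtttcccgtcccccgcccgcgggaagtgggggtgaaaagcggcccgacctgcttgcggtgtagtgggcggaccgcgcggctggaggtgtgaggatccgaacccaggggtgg
The element starts at -66 in HSPA5, and HSP90B1 has one at -194 and one at -89.

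Among the HSP90 co-chaperones, FKBP4, an immunophilin of steroid receptor complexes, had 89.1, 86.3 and 89.3 FPKM at 100 µg/ml, against 74.7, 76.6 and 78.6 FPKM at 0 µg/ml. It rose by 0.20 (SE 0.030, limma adjusted p = 0.000218) at 100 µg/ml and by 0.14 (adjusted p = 0.01) at 50 µg/ml, with no overlap at either dose. Its call at 50 µg/ml ended when 0 µg/ml replicate 1 was left out and with libraries scaled to the same median (adjusted p up to 0.0598). AHSA1, which activates the HSP90 ATPase, had 194, 192 and 195 FPKM at 100 µg/ml, against 173, 175 and 173 FPKM at 0 µg/ml. Its rise of 0.16 (SE 0.031, limma adjusted p = 0.00219) was accompanied by a rise of 0.13 at 50 µg/ml (adjusted p = 0.0144). That call ended on leaving out 0 µg/ml replicate 1 or 3 and with libraries scaled to the same median (adjusted p up to 0.0975).

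STIP1, the adaptor that bridges HSP70 and HSP90, had 253, 250 and 250 FPKM at 100 µg/ml, against 236, 237 and 240 FPKM at 0 µg/ml. The libraries were apart by a small margin, and 0.08 did not pass (limma adjusted p = 0.065). FKBP4 shares 8547 bases with ITFG2-AS1 on the opposite strand, AHSA1 shares 83 with VIPAS39 and HSP90AA1 shares 197 with WDR20. These overlaps are by GENCODE v29, and the annotation used in counting is not given. The kit does not mark strand, and the handling of strand in counting is not given. Reads of such pairs thus cannot be assigned with certainty, here and wherever an overlap is named.

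BAG proteins release nucleotide from HSP70. BAG3, which with HSPB8 directs misfolded protein to autophagy, had 44.0, 46.3 and 46.8 FPKM at 100 µg/ml, against 41.0, 38.5 and 42.3 FPKM at 0 µg/ml. It rose by 0.17 (SE 0.035, limma adjusted p = 0.00342), and by 0.20 at 50 µg/ml (adjusted p = 0.00245), where the libraries had 46.3, 47.1 and 46.4 FPKM. All libraries of both doses were above the highest 0 µg/ml library.

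BAG2, an inhibitor of the chaperone-linked ubiquitin ligase STUB1 (CHIP), had 12.14, 11.03 and 11.43 FPKM at 100 µg/ml, against 9.439, 9.902 and 9.228 FPKM at 0 µg/ml. No libraries overlapped, and it rose by 0.26 (SE 0.055, limma adjusted p = 0.00354) and by 0.23 at 50 µg/ml (adjusted p = 0.016). Leaving out 0 µg/ml replicate 1 or 3, or 50 µg/ml replicate 2 or 3, ended the call at 50 µg/ml (adjusted p up to 0.0713). BAG2 shares 2842 bases with RAB23 on the opposite strand. BAG1 (0.14, adjusted p = 0.0637), BAG4 (0.01, adjusted p = 0.96) and BAG5 (-0.01, adjusted p = 0.93) were not called.

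HSF2, a heat shock transcription factor best known from development, had 6.79, 7.48 and 8.02 FPKM at 100 µg/ml, against 6.44, 6.90 and 7.34 FPKM at 0 µg/ml. The groups overlapped (fold 0.10, limma adjusted p = 0.502). HSPB1, the small heat shock protein HSP27, had 607, 597 and 547 FPKM at 100 µg/ml, against 598, 559 and 648 FPKM at 0 µg/ml. It overlapped as well, with a difference of -0.04 (SE 0.085, limma adjusted p = 0.807). HSPB8, the partner of BAG3, was below the filter on low values.

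**Figure D2:**
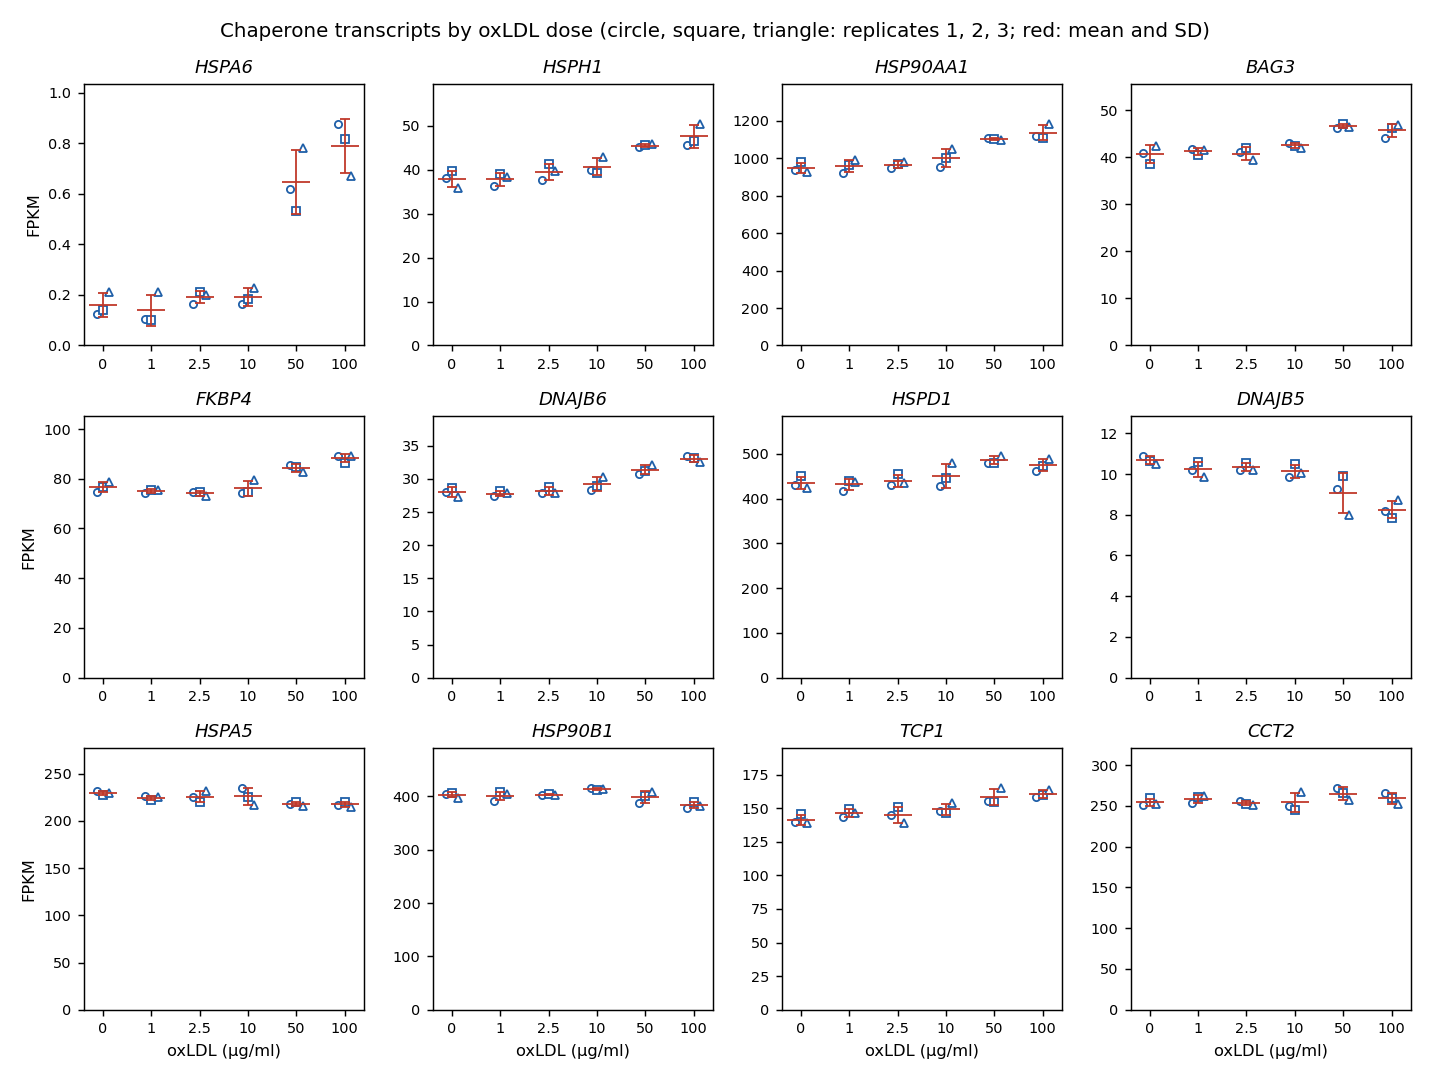
FPKM in every library (y axis, from 0) against oxLDL dose (x axis, µg/ml, evenly spaced steps) for 12 members, with symbols for replicates 1 to 3 and the mean and SD in red. HSPA6, HSPH1, HSP90AA1, BAG3, FKBP4 and DNAJB6 sit higher at 50 and 100 µg/ml, DNAJB5 sits lower, and HSPA5, HSP90B1 and CCT2 were not called at either dose.

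J-proteins carry the J-domain that starts the HSP70 ATPase, and classes A, B and C differ in the rest of the protein. At 100 against 0 µg/ml 6 of 35 rose and 1 fell, 3 up and 1 down among 10 of class B and 3 up among 23 of class C. Neither of the 2 members of class A was called. The share called was 20.0% of J-proteins, near the 15.5% of all genes, and 13% in class C. At 50 against 0 µg/ml 2 J-proteins rose and 1 fell, 8.6% where 7.47% of all genes were called.

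DNAJB6 (chr7:157337004-157417439), a suppressor of polyglutamine and amyloid aggregation, had 33.5, 33.2 and 32.5 FPKM at 100 µg/ml, against 28.1, 28.7 and 27.3 FPKM at 0 µg/ml. The log2 fold change was 0.23 (SE 0.031, limma adjusted p = 8.06e-05), and 0.16 at 50 µg/ml (adjusted p = 0.00518). Neither dose overlapped with 0 µg/ml. The mean of the 100 µg/ml libraries was the highest of the 6 doses.

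DNAJB5 (chr9:34989745-34998900), a class B J-protein, was the single member that fell. It had 8.20, 7.86 and 8.71 FPKM at 100 µg/ml, against 10.9, 10.7 and 10.5 FPKM at 0 µg/ml. The treated libraries were all lower (fold -0.35, SE 0.059, limma adjusted p = 0.000564). DNAJB5 at 50 µg/ml had 9.27, 9.91 and 7.99 FPKM, and its fall of -0.23 (adjusted p = 0.024) was not called when replicate 3 of that dose or any 0 µg/ml library was left out (adjusted p up to 0.112). Means at 1, 2.5 and 10 µg/ml were 10.2, 10.3 and 10.1 FPKM.

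DNAJB1 is the inducible class B partner of cytosolic HSP70 in disaggregation, and its rise was at the threshold. It had 48.9, 48.7 and 52.6 FPKM at 100 µg/ml, against 46.1, 44.8 and 48.6 FPKM at 0 µg/ml. The nearest libraries were almost level, and the fold of 0.11 (SE 0.035, limma adjusted p = 0.0496) was lost in 9 of 15 other settings. Among them were the omissions of 0 µg/ml replicate 1 or 2 and of 100 µg/ml replicate 1 or 3 (adjusted p up to 0.244). DNAJB1 shares 12686 bases with TECR on the opposite strand. DNAJA1, the abundant class A partner, had 264, 256 and 266 FPKM at 100 µg/ml, against 250, 258 and 253 FPKM at 0 µg/ml, with overlap and a fold of 0.05 (adjusted p = 0.317).

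Several ER J-proteins serve HSPA5. DNAJC1, which sits in the ER membrane, had 4.88, 5.22 and 5.87 FPKM at 100 µg/ml, against 4.53, 4.27 and 4.23 FPKM at 0 µg/ml. Its groups were apart, and it rose by 0.26 (SE 0.058, limma adjusted p = 0.00486) and by 0.21 at 50 µg/ml (adjusted p = 0.034). Leaving out any 0 µg/ml library, or 50 µg/ml replicate 2 or 3, ended the call at 50 µg/ml (adjusted p up to 0.136). DNAJB11, a lumenal co-chaperone, had 104, 104 and 100 FPKM at 100 µg/ml, against 92.2, 93.0 and 97.6 FPKM at 0 µg/ml. It rose by 0.12 (SE 0.036, limma adjusted p = 0.031), and it shares 3141 bases with TBCCD1 on the opposite strand. Its call ended on leaving out replicate 1 or 2 of either dose, with libraries scaled to the same median and with no variance trend (adjusted p up to 0.128).

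DNAJB9 (ERdj4), which represses the stress sensor IRE1, had 5.77, 5.59 and 5.79 FPKM at 100 µg/ml, against 5.21, 4.67 and 5.59 FPKM at 0 µg/ml. It touched the 0 µg/ml range at its top and was not called (fold 0.14, limma adjusted p = 0.115), but was when 0 µg/ml replicate 3 was left out (adjusted p = 0.037). DNAJC3 (P58IPK), an inhibitor of the kinase PERK, had 8.66, 9.01 and 9.79 FPKM at 100 µg/ml, against 8.82, 8.12 and 8.12 FPKM at 0 µg/ml. The groups overlapped (fold 0.12, limma adjusted p = 0.154).

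The remaining J-proteins that rose are cytosolic. DNAJC5, the cysteine-string protein of secretory vesicles, had 43.6, 43.6 and 47.6 FPKM at 100 µg/ml, against 41.1, 40.1 and 39.2 FPKM at 0 µg/ml (fold 0.16, SE 0.038, limma adjusted p = 0.00785). All treated libraries were higher, although omitting 100 µg/ml replicate 3 gave an adjusted p of 0.052. DNAJC2, which acts on the ribosome, had 37.5, 41.2 and 41.8 FPKM at 100 µg/ml, against 36.3, 36.8 and 36.6 FPKM at 0 µg/ml (fold 0.13, SE 0.042, limma adjusted p = 0.0429). Leaving out any 0 µg/ml library, or 100 µg/ml replicate 2 or 3, ended the call (adjusted p up to 0.186). So did using only the libraries of the doses compared, and no variance trend. DNAJC2 shares 17038 bases with PMPCB on the opposite strand.

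The other 28 J-proteins were not called at 100 against 0 µg/ml. The widest differences among all members that were not called were those of HSPE1 at 0.19 and DNAJC24, of diphthamide synthesis, at 0.18 (limma adjusted p = 0.0976) on the high side. On the low side they were DNAJB13, of the sperm flagellum, at -0.13 (adjusted p = 0.564) and DNAJC9, a histone chaperone, at -0.11 (adjusted p = 0.144).

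HSPD1 and HSPE1 form the mitochondrial HSP60 and HSP10 chaperonin and are encoded head to head. HSPD1 had 462, 473 and 489 FPKM at 100 µg/ml, against 430, 450 and 423 FPKM at 0 µg/ml. The groups were apart, with a fold of 0.13 (SE 0.040, limma adjusted p = 0.0422) and of 0.16 at 50 µg/ml (adjusted p = 0.0237). Both calls ended on leaving out 0 µg/ml replicate 1 or 3, or replicate 2 or 3 of the dose itself (adjusted p up to 0.167 at 100 and 0.0973 at 50 µg/ml). The call at 100 µg/ml also ended with no filter, with libraries scaled to the same median and with no variance trend. HSPE1 had 189, 179 and 188 FPKM at 100 µg/ml, against 142, 170 and 177 FPKM at 0 µg/ml. Replicate 1 at 0 µg/ml was low, and the difference was not called (SE 0.10, limma adjusted p = 0.257). By GENCODE v29 the genes share 3464 bases on opposite strands, while at their RefSeq positions they do not overlap.

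CCT is the cytosolic ring chaperonin that folds actin and tubulin, and its subunits are made for assembly into 1 complex. Of the 7 subunits tested, 1 was called, TCP1, a share of 14.3% where 15.5% of all genes were called. TCP1 (chr6:159778498-159789602) had 158, 160 and 164 FPKM at 100 µg/ml, against 140, 146 and 139 FPKM at 0 µg/ml. All treated libraries were higher (fold 0.18, SE 0.035, limma adjusted p = 0.00169). At 50 µg/ml the fold was 0.17 (adjusted p = 0.00832, and 0.0513 without replicate 3 of that dose).

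CCT2 had 265, 260 and 253 FPKM at 100 µg/ml, against 251, 260 and 252 FPKM at 0 µg/ml, with overlap (fold 0.03, limma adjusted p = 0.656). The 6 tested subunits other than TCP1 had log2 fold changes from 0.00 to 0.04. They summed to 1580 ± 8.53 FPKM at 100 µg/ml, against 1550 ± 18.6 FPKM at 0 µg/ml (SD, n = 3 each). A log2 ratio was formed as log2 FPKM of TCP1 minus the mean log2 FPKM of these 6 subunits. It was -0.66, -0.64 and -0.60 at 100 µg/ml, against -0.80, -0.77 and -0.81 at 0 µg/ml. The ratio was higher in every 100 µg/ml library than in every 0 µg/ml library. Its mean was -0.74 at 1, -0.74 at 2.5, -0.71 at 10 and -0.67 at 50 µg/ml. TCP1 overlaps the cholesterol gene ACAT2 by 558 bases on the opposite strand, and the part of this overlap was not tested.

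Below 50 µg/ml no member was called. In limma 0 of 75 members were called at 1, 2.5 and 10 against 0 µg/ml, and limma-voom also called 0. The members with an unadjusted p under 0.05 numbered 2 at 1, 1 at 2.5 and 3 at 10 µg/ml, where 3.01%, 4.38% and 9.77% of all genes passed. The shares of all genes called there were 0% at 1 and 2.5 µg/ml and 0.0412% at 10 µg/ml. Over the 21 members that rose at 100 µg/ml, the median log2 fold change against 0 µg/ml was 0.00 at 1, 0.01 at 2.5, 0.05 at 10, 0.16 at 50 and 0.18 at 100 µg/ml. These medians share the 0 µg/ml libraries, and the value at 100 µg/ml follows in part from the choice of the 21.

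**Figure D3:**
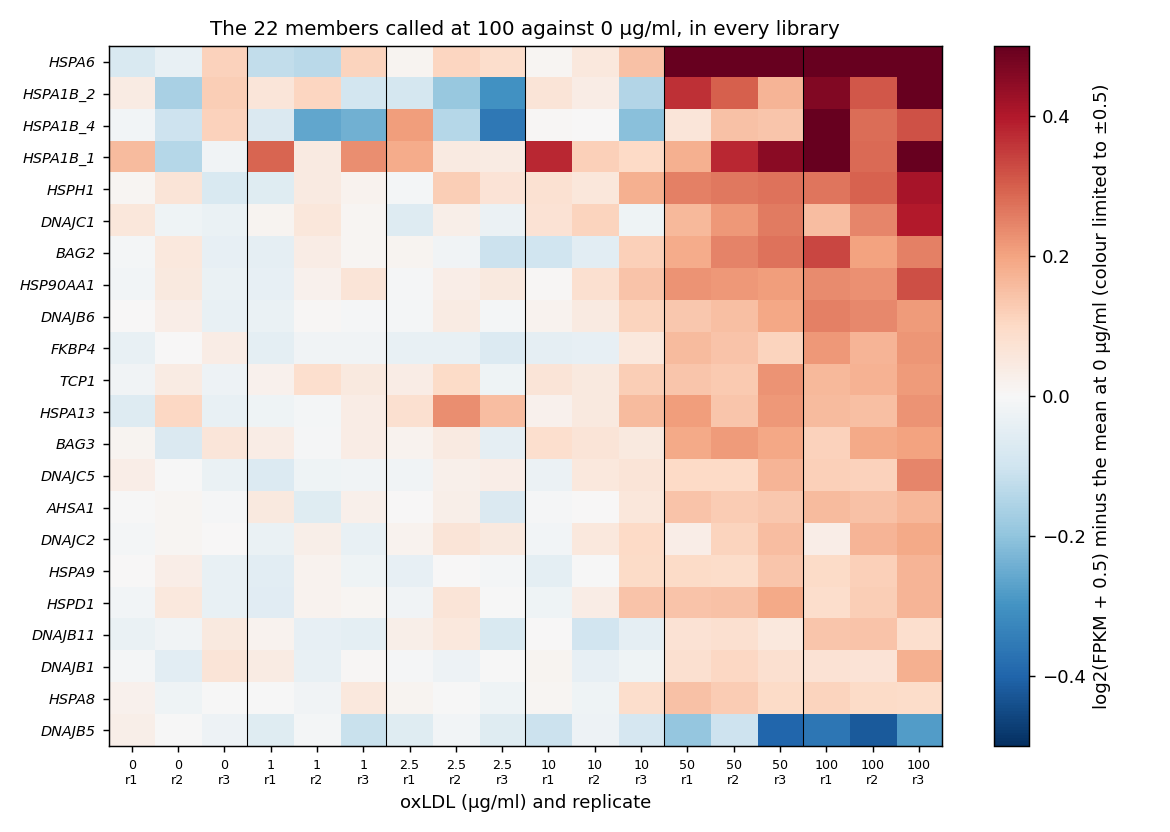
Log2(FPKM + 0.5) minus the mean at 0 µg/ml for the 22 members called at 100 against 0 µg/ml (rows, ordered by fold) in each of the 18 libraries (columns, by dose and replicate), with colour limited to ±0.5. The columns at 50 and 100 µg/ml are red for the 21 members that rose and blue for DNAJB5, and replicate 3 at 10 µg/ml is redder than its neighbours for many members.

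The fold changes between 10 and 50 µg/ml come from libraries that the fold changes at 100 against 0 µg/ml do not use. The tests are not separate, since both share an estimate of the spread from all 18 libraries. HSPA6 (0.72, SE 0.10, limma adjusted p = 0.000399), BAG2 (0.25, adjusted p = 0.0259) and FKBP4 (0.15, adjusted p = 0.0144) rose at 50 against 10 µg/ml, 4.0% of the members where 2.61% of all genes were called and 1.39% rose. HSPA6 was tested there through its 50 and 100 µg/ml levels, and with no filter its adjusted p was 0.000189. All 21 members that rose at 100 against 0 µg/ml had a fold above 0 at 50 against 10 µg/ml, with a median of 0.12. Among all 963 genes that rose at 100 against 0 µg/ml this share was 96.4% and the median 0.11, close to the members' values. DNAJB5 had -0.16. Without replicate 3 at 10 µg/ml, the library that stood high, 13 members were called at this step, and on leaving out 10 µg/ml replicate 1 or 2, or 50 µg/ml replicate 2, 1 was. All genes called moved as well, from 317 to 727 on the first omission, and to 113, 79 and 162 on the others. BAG2 and FKBP4 were each lost in 5 of 15 other settings (adjusted p up to 0.138 and 0.121), 4 of them without 1 library. The remaining setting was the fit to the libraries of these doses alone.

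That library can be seen in the cytosolic HSP90 sum, which was 2387, 2453 and 2555 FPKM in replicates 1 to 3 at 10 µg/ml. The 2 replicates below it were nearer to the 2366, 2409 and 2357 FPKM at 0 µg/ml. Between 100 and 50 µg/ml limma called 0 members, where 0.28% of all genes were called, and limma-voom called 0. At an unadjusted p under 0.05 there were 6 members, where 8.33% of all genes passed.

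**Figure D4:**
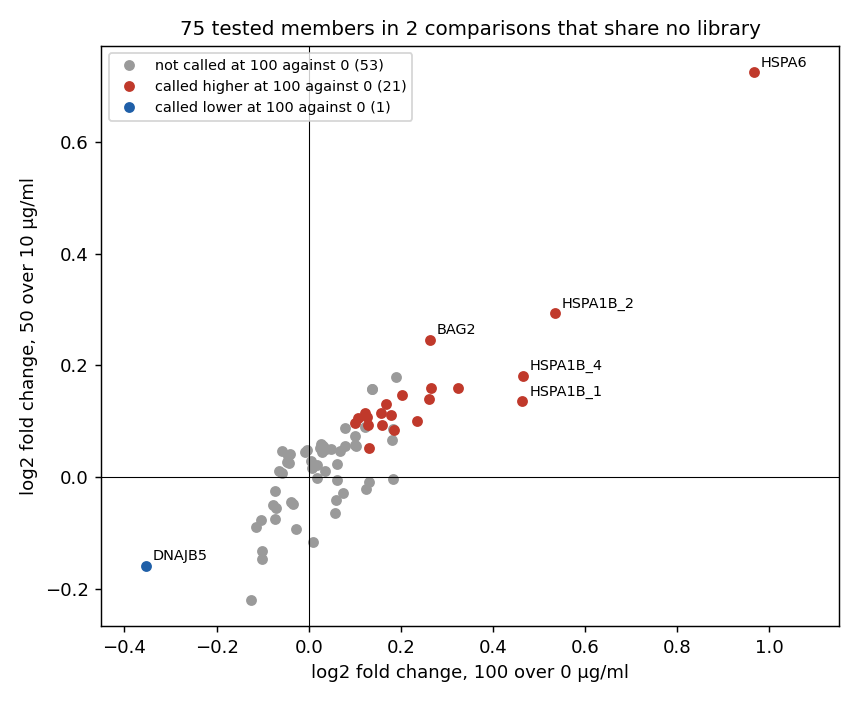
Log2 fold change at 50 over 10 µg/ml (y axis) against that at 100 over 0 µg/ml (x axis) for the 75 tested members, 1 point each, in comparisons that share no library. All 21 members that rose at 100 against 0 µg/ml (red) lie above 0 on the y axis, DNAJB5 (blue) lies at -0.16, and HSPA6 is the farthest at 0.97 and 0.72.

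A slope on log2(dose + 1) over all 18 libraries called 28 members up and 4 down (42.7%), where 25.6% of all genes were called, 13% up and 12.6% down. The steepest rise was that of HSPA6, at 0.16 log2 units per unit of log2(dose + 1), and HSPH1 followed among the unsuffixed genes at 0.05 (limma adjusted p = 1.77e-06). DNAJB5 (-0.05), HSPA2 (-0.02), DNAJC9 (-0.02) and HSPA5 (-0.01) had negative slopes. HSPA5 had an adjusted p of 0.0235. The HSPA5 call ended on leaving out 0 µg/ml replicate 1 or 100 µg/ml replicate 3 (adjusted p up to 0.0611), and DNAJC9 lost its call in 7 settings (up to 0.0893). HSP90B1 was not called by slope (adjusted p = 0.159).

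As a share of all FPKM, the 76 members together made 2.39% ± 0.019 at 100 µg/ml and 2.41% ± 0.011 at 50 µg/ml, against 2.25% ± 0.036 at 0 µg/ml (SD, n = 3 each). Their summed level was 9654, 9613 and 9662 FPKM at 100 µg/ml, against 9050, 9116 and 9104 FPKM at 0 µg/ml. The groups were apart. The most abundant members, HSP90AB1, HSPA8 and HSP90AA1, weigh most in this sum, and their share of it was not computed.

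Chaperone partners outside the symbol rule were read from a list of 39 genes, among them prefoldins, CDC37 and organelle co-chaperones. Of 34 tested, 4 rose and 1 fell at 100 against 0 µg/ml, where 15.5% of all genes were called, with a median log2 fold change of 0.02. CACYBP (0.14, limma adjusted p = 0.0352), the HSP90 co-chaperone p23 gene PTGES3 (0.12, adjusted p = 0.0263), the ER translocon J-protein SEC63 (0.12, adjusted p = 0.0456) and the HSP70-interacting ST13 (0.09, adjusted p = 0.0195) rose. STUB1, the ligase that BAG2 inhibits, had 29.2 ± 2.11 FPKM at 100 µg/ml, against 32.7 ± 1.66 FPKM at 0 µg/ml (SD, n = 3 each), and fell by 0.17 (adjusted p = 0.03).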

How the data were processed

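The authors deposited FPKM for 13992 genes in 18 libraries. Tools listed in the submitters' processing notes are featureCounts, HISAT2 2.0.5 and DESeq2, with build hg38, and no roles. Aligner settings, annotation and strand handling are not given in the sources used here. FPKM steps gave whole reads within 0.05 for 100.0% of genes. These recovered reads were used only for depth, limma-voom and the read numbers given for HSPA6 and HSPB8.

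Genes with FPKM of at least 0.5 in 3 libraries (12127, with 1865 below) were fitted as log2(FPKM + 0.5), which understates changes of low genes, over all 6 doses in limma 3.58.1 (R 4.3.3) with the variance trend and 12 residual degrees of freedom. Two-sided p-values were adjusted per comparison (Benjamini-Hochberg), and genes were called under 0.05. Gene positions and promoters are RefSeq, the promoters on GRCh38.p14, and overlaps between genes were read from GENCODE v29 (hg38). Deviations of same-numbered libraries of different doses had a median correlation of 0.0105, with 10 of 45 pairs over 0.1. Replicates were therefore not paired, and a replicate block was fitted as an alternative.

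Per-library levels are given for members fixed by name and for up to 3 called members of each family. Members and lists were chosen with earlier results of these data known. The printed promoters were chosen after motifs and values were seen, and protein sequences were not used here. A few genes of the marker and partner lists are not reported here. Alternatives varied the pseudocount, filter, scaling, variance trend, doses fitted, block, unit and libraries.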

Additional observations from a re-analysis of the deposited data

How the results depend on the processing

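No called member changed direction in any setting, and calls near the threshold were lost in some. There were 15 other settings per comparison of doses and 17 for the slope. HSPA6 and HSPA1B_1, which the stricter filter removes, had 14 and 16. At 100 against 0 µg/ml 13 of 22 called members were called in all settings that tested them. At 50 against 0 µg/ml these were 5 of 15, at 50 against 10 µg/ml 1 of 3, and by slope 25 of 32. With single libraries left out, all genes called were 1204 to 1553 at 100 against 0 µg/ml (1874 with all libraries) and members 14 to 19. At 50 against 0 µg/ml they were 458 to 659 (906 with all) and 7 to 12. At 10 against 0 µg/ml 5 genes were called, and 0 to 3 without single libraries, 2 with no filter, 2 with libraries scaled to the same median, 1 from the libraries of these doses alone, 1 with no variance trend and 9 with the replicate block. At 1 against 0 µg/ml the libraries of these doses alone gave 1 gene where the joint fit gave 0.

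At 50 against 10 µg/ml all genes called were 317, with 86 from the libraries of these doses alone and 79 to 727 without single libraries, the highest without replicate 3 at 10 µg/ml. The members called there were 3, with 5 under equal medians, 1 from the libraries of these doses alone, 7 by limma-voom, and 1 to 13 without single libraries. The cause was not tested.

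Correlations of the deviations of same-numbered libraries of different doses ran from -0.333 to 0.245 over 45 pairs, 10 of them over 0.1. With the replicate block, 1921 genes and 22 members were called at 100 against 0 µg/ml, and 961 and 15 at 50 against 0 µg/ml. Depth limits HSPA6, HSPB8 and the suffixed HSPA1B rows, which rest on few reads.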

Other observations

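HSPB8, a small heat shock protein, was left out of the tests by the filter on low values. It had 0.210, 0.230 and 0.502 FPKM at 100 µg/ml, against 0.104, 0.0995 and 0.0192 FPKM at 0 µg/ml. The recovered reads were 7, 16 and 13 at 100 µg/ml, against 4, 5 and 1 at 0 µg/ml. Fitted with no filter, the log2 fold change of HSPB8 was 0.49 (SE 0.13, limma adjusted p = 0.0223).

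The 4 rows that code for no listed protein were not called. At 100 µg/ml, against 0 µg/ml, the log2 fold change was -0.10 for each of the chaperonin pseudogenes CCT6P1 (limma adjusted p = 0.398) and CCT6P3 (adjusted p = 0.576), and 0.06 for each of DNAJC9-AS1 (adjusted p = 0.72) and DNAJC3-DT (adjusted p = 0.815). By GENCODE v29 DNAJC9-AS1 shares 1503 bases with DNAJC9 on the opposite strand, while at their RefSeq positions they do not overlap.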
